A study of Mus musculus with 8 samples.

Results

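Smooth muscle cells shorten by sliding myosin along actin filaments, and the 10 genes described here encode parts of that apparatus: Acta2, Tagln, Cnn1, Myh11, Smtn, Mylk, Lmod1, Synpo2, Tpm2 and Cald1. They were chosen by symbol from a table of 31507 transcript entries of 20701 gene symbols, and for each symbol the entry with the highest summed read count was kept. All 10 of the 10 genes were in the table, and all 10 passed the filter on low counts, which kept 14075 genes. RNA had been sequenced from the pharyngeal mesoderm and hearts of single C57BL/6 mouse embryos at E8.75 (6 somites). Of these, 4 embryos were Isl1 knockouts (Isl1-/-) and 4 were wild-type, with no treatment and no transgene in the labels. Isl1 encodes a LIM-homeodomain factor of the cardiac progenitors of the second heart field, and the comparison asked what changes in the forming heart without it. The labels name neither the allele nor the litters. Their molecule field reads polyA RNA in 7 libraries and total RNA in the library of knockout embryo 2.

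In smooth muscle, actin, tropomyosin, caldesmon and calponin form the thin filament, myosin forms the thick filament, and phosphorylation of the myosin light chain by its kinase starts contraction. Most genes of the group are textbook targets of serum response factor (SRF), which binds CArG boxes in their promoters or introns and works with the coactivator myocardin. Several of them, Acta2, Tagln and Cnn1 among them, are also made for a time by the cardiomyocytes of the early heart tube, so at this stage their RNA marks young muscle in general rather than smooth muscle alone. The RNA came from whole dissected tissue, in which fewer cells of a type and less RNA per cell cannot be told apart.

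The promoters of the 3 genes that passed the test below are shown first, because they carry, or lack, the box through which SRF acts. Each sequence is the 250 bases before the transcription start in RefSeq (GRCm38.p6), read 5′ to 3′ on the strand of the gene, and each matched the mm9 genome once. The table held 8 of the 10 genes, and Tagln and Myh11 had no entry. Capitals mark matches on either strand to a CArG box (CCNNNNNNGG with at least 5 of the 6 middle bases A or T), to the MCAT element CATTCC, which TEAD factors bind, or to the TATA box TATAAA. None of the printed matches overlapped another.
Acta2, chr19:34329864-34330113, minus strand: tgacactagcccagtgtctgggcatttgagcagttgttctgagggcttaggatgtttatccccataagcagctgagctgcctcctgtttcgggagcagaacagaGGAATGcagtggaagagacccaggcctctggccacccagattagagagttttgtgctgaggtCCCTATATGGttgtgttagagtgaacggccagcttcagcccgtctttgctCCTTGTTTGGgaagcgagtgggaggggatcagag
Cnn1, chr9:21903447-21903696, plus strand: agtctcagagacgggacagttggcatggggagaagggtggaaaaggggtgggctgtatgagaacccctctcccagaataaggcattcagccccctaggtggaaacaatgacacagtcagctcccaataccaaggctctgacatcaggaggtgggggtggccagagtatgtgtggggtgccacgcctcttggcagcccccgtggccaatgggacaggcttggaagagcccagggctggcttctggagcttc
Synpo2, chr3:122939068-122939317, minus strand: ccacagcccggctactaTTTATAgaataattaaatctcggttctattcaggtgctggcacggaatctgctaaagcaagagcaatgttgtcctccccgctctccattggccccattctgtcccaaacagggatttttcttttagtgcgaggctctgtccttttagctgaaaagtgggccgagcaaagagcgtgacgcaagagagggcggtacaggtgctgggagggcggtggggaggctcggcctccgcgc

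The Acta2 window held 2 CArG boxes, CCCTATATGG at 84 to 75 bases before the start and CCTTGTTTGG at 34 to 25 bases before it, and an MCAT element read on the other strand as GGAATG at 146 to 141 bases. Both CArG boxes had 5 of 6 middle bases A or T. No such box lay in the windows of the 7 other genes with an entry. Of 32851 promoters in the same table, 8.59% held at least 1 box of this kind and 0.67% held 2 or more, and 1.47% held a box with all 6 middle bases A or T. MCAT elements lay also in the windows of Smtn, Mylk and Lmod1 and in 1 of 2 windows of Cald1, and in 12.6% of all promoters. The windows of Mylk (chr16:34784786-34785035) and Smtn (chr11:3439296-3439545) lay inside the gene spans given below. So did the Cald1 window without an MCAT element. These windows precede a RefSeq start within the gene, not its outermost annotated end. The Synpo2 window held a TATA box on the other strand, TTTATA at 233 to 228 bases, a motif found in 12.4% of all promoters. The Cnn1 window held none of the motifs. A match describes the letters of the window only, and boxes in introns or farther upstream were not searched.

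Between 18916452 and 26153039 reads per embryo were counted over the kept transcripts, with the lowest totals in knockout embryos 3 and 4. Levels below are TMM-scaled counts per 1e6 reads (CPM), a scale for comparing 1 gene between embryos. Isl1 (NM_021459, mm9 chr13:117088478-117099896, minus strand) was at 9.72, 9.76, 26.9 and 23.3 CPM in the wild-type group, in the order of the embryo numbers, and at 2.32, 2.16, 1.78 and 2.40 CPM in the knockout group. The same order is used for all values below. The groups did not overlap, and the knockout mean was 12.4% of the wild-type mean. The log2 means differed by -2.86 with an exact two-sided permutation p of 0.0286, the smallest that 70 regroupings of 4 against 4 embryos allow.

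Of the 10 genes, 3 fell in the knockout embryos and none rose at an edgeR false discovery rate (FDR) of 0.05, against 0.867% of all 14075 genes that fell and 0.107% that rose. The 3 were Synpo2, Cnn1 and Acta2, at 39.4%, 46.0% and 58.5% of their wild-type means. DESeq2 called 4 of the 10 lower, the same 3 and Myh11, and 3.53% of the 13246 genes to which it gave an adjusted p. The estimates of the 10 genes ran from -1.35 to 0.17 on the log2 scale with a median of -0.38, while the median of all genes was 0.01. Estimates were below 0 for 8 genes and above 0 for Mylk and Cald1. By the thresholds of the study, at least 1.5-fold and an unadjusted edgeR p under 0.05, 4 of the 10 were lower (Synpo2, Cnn1, Myh11 and Acta2), against 2.26% of all genes. For the same 4 genes every knockout embryo lay below every wild-type embryo, which held for 6.33% of all genes, and for none was every knockout embryo higher, against 3.96% of all genes. The 10 genes and the lists below were chosen with earlier results of these data known. Their counts beside the shares of all genes are therefore a description and test nothing.

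**Figure D1:**
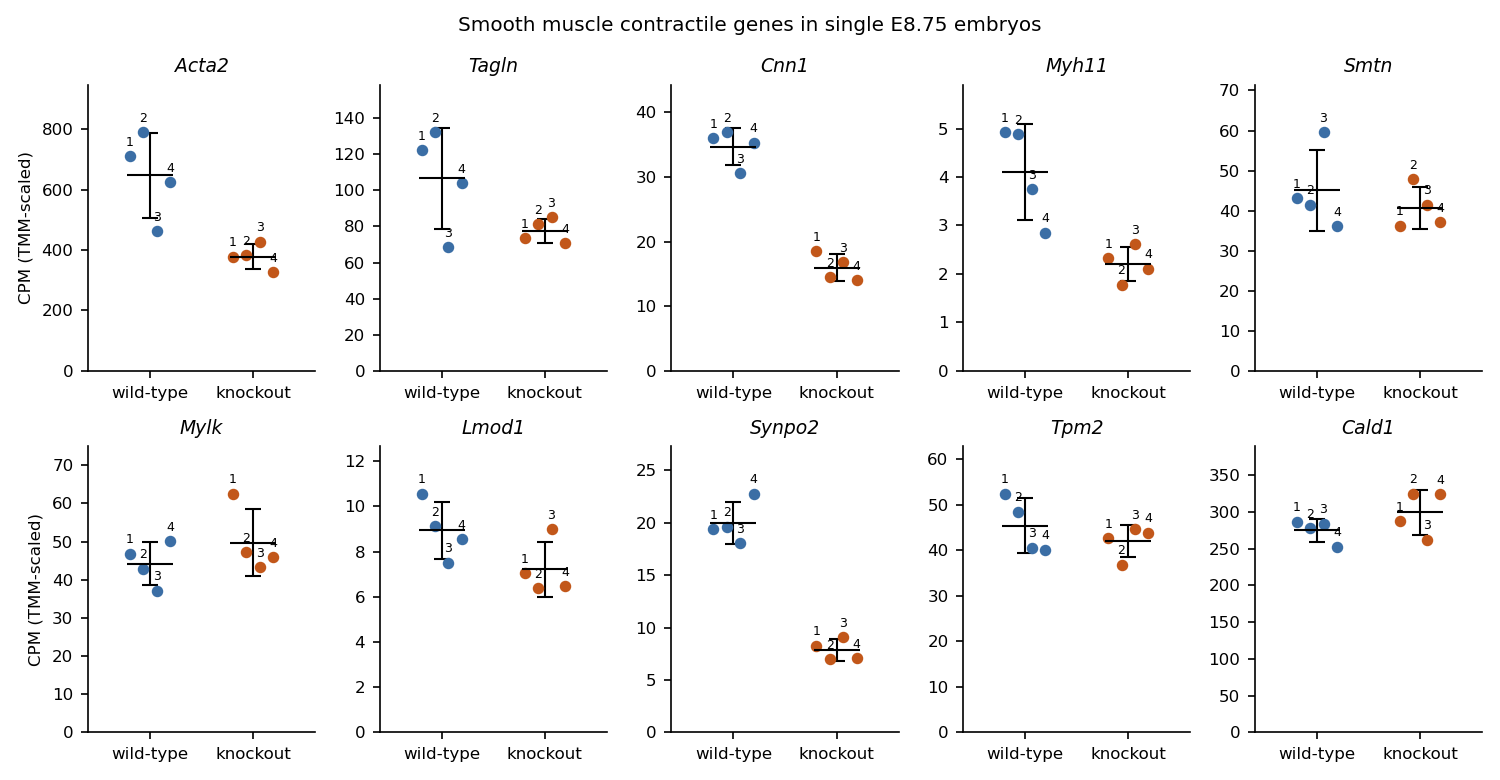
Levels of the 10 smooth muscle contractile genes (y axes, TMM-scaled CPM, each from 0) in the 4 wild-type (blue) and 4 knockout (orange) embryos, numbered as in the labels, with the mean (line) and SD (bars). The groups are apart for Acta2, Cnn1, Myh11 and Synpo2 and overlap for the 6 other genes, and wild-type embryo 3 is the lowest wild-type point for Acta2 (463 CPM) and Tagln (68.3 CPM).

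The thin filament genes come first. Acta2 (NM_007392, mm9 chr19:34315580-34329826, minus strand) encodes smooth muscle alpha-actin. Its RNA stood at 710.1, 789.5, 463 and 623.5 CPM in wild-type and 377, 382, 427 and 327 CPM in knockout embryos. Wild-type embryo 3 was the lowest of its group and knockout embryo 3 the highest of its own, and a gap remained between them. The means were 646.5 ± 139.9 (SD, n = 4) and 378 ± 41.2 CPM (SD, n = 4), and the estimate was -0.77 on the log2 scale (SE 0.15, 95% interval -1.11 to -0.44, 1.71-fold lower, edgeR FDR 0.0480). This call lay close to the threshold. Leaving out any 1 embryo other than wild-type embryo 3 gave an edgeR FDR between 0.0729 and 0.162, and leaving out wild-type embryo 3 gave -0.90 with an FDR of 0.00361.

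Tagln (NM_011526, chr9:45737711-45744141, minus strand) encodes transgelin, or SM22-alpha, an actin-binding protein of the calponin family. It stood at 122, 132, 68.3 and 104 CPM in wild-type and 73.6, 81.2, 85.0 and 70.6 CPM in knockout embryos. Wild-type embryo 3 lay below all 4 knockout embryos, and the other 3 wild-type embryos lay above all of them. The means were 107 ± 28.1 and 77.6 ± 6.63 CPM (SD, n = 4 each), with an estimate of -0.46 (SE 0.17, 95% interval -0.84 to -0.07, edgeR FDR 0.220), so the difference did not pass the threshold. Without wild-type embryo 3 it was -0.62 with an edgeR FDR of 0.0130. Tagln shared 65 exon bases with Pcsk7 on the opposite strand, and reads of both strands had been counted.

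Cnn1 (NM_009922, chr9:21903725-21914074, plus strand) encodes calponin 1, which binds actin and slows the myosin ATPase. Wild-type embryos had 35.9, 36.9, 30.6 and 35.3 CPM, and knockout embryos had 18.5, 14.5, 16.8 and 14.1 CPM. The lowest wild-type embryo was well above the highest knockout embryo, and both groups were tight. Cnn1 fell from 34.7 ± 2.80 to 16.0 ± 2.08 CPM (SD, n = 4 each), by 1.12 on the log2 scale (SE 0.11, 95% interval -1.36 to -0.87, 2.17-fold lower, edgeR FDR 0.00212). Of its relatives, Cnn2 had an estimate of -0.17 (edgeR FDR 0.334) and Cnn3 one of -0.09 (FDR 0.697).

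Cald1 (NM_001347100, chr6:34548500-34725473, plus strand) encodes caldesmon, a thin filament inhibitor that is made in a long smooth muscle form and a short form found in most cells. It stood at 286, 277.5, 284 and 253 CPM in wild-type and 287, 325, 262 and 324 CPM in knockout embryos. The groups overlapped, and the estimate was 0.12 (SE 0.08, 95% interval -0.06 to 0.30, edgeR FDR 0.459). Tpm2 (NM_009416, chr4:43527583-43536637, minus strand) encodes beta-tropomyosin, which lies along the actin filament. Its values were 52.5, 48.5, 40.6 and 40.1 CPM in wild-type and 42.6, 36.9, 44.7 and 43.9 CPM in knockout embryos. These groups overlapped as well, with an estimate of -0.11 (SE 0.11, 95% interval -0.35 to 0.13, edgeR FDR 0.627). Tpm1, the alpha-tropomyosin gene used by heart and smooth muscle, fell from 547 ± 58.8 to 387 ± 23.6 CPM (SD, n = 4 each), by 0.50 on the log2 scale (edgeR FDR 0.0239).

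On the myosin side, Myh11 (NM_013607, chr16:14194620-14291501, minus strand) encodes the heavy chain of smooth muscle myosin, the most specific marker of differentiated smooth muscle in the group. It was read only 75 to 118 times in wild-type libraries and 43 to 60 times in knockout libraries. Its levels were 4.92, 4.88, 3.75 and 2.85 CPM in wild-type and 2.32, 1.78, 2.61 and 2.10 CPM in knockout embryos. The lowest wild-type embryo, number 4, was just above the highest knockout embryo, number 3. The means were 4.10 ± 0.994 and 2.21 ± 0.351 CPM (SD, n = 4 each), and the estimate of -0.89 (SE 0.22, 95% interval -1.38 to -0.41, edgeR FDR 0.0866) did not pass the threshold. DESeq2 gave the same estimate with an adjusted p of 0.0182.

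Mylk (NM_139300, chr16:34745296-35002520, plus strand) encodes myosin light chain kinase, whose long form is made by many cell types and whose short form is typical of smooth muscle. The table had 1 entry for the gene, so the forms could not be told apart. It stood at 46.8, 42.9, 37.1 and 50.1 CPM in wild-type and 62.5, 47.2, 43.3 and 45.9 CPM in knockout embryos. Knockout embryo 1 was above every wild-type embryo, and the other 3 lay within the wild-type range. The estimate was 0.17 (SE 0.13, 95% interval -0.13 to 0.46, edgeR FDR 0.546).

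Among the genes that organise actin, Synpo2 (NM_080451, chr3:122779437-122939067, minus strand) encodes synaptopodin 2, or myopodin, an actin-bundling protein of smooth muscle dense bodies and of the Z-discs of striated muscle. Wild-type embryos had 19.4, 19.6, 18.0 and 22.8 CPM, and knockout embryos had 8.27, 6.96, 9.10 and 7.10 CPM. Every knockout embryo was well below every wild-type embryo. Synpo2 had the lowest estimate of the 10 genes: it fell from 19.96 ± 2.002 to 7.86 ± 1.01 CPM (SD, n = 4 each), by 1.35 on the log2 scale (SE 0.12, 95% interval -1.62 to -1.07, 2.54-fold lower, edgeR FDR 0.00186).

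Lmod1 (NM_053106, chr1:137221384-137264642, plus strand) encodes leiomodin 1, which starts new actin filaments in smooth muscle. It stood at 10.6, 9.13, 7.50 and 8.55 CPM in wild-type and 7.04, 6.38, 8.99 and 6.46 CPM in knockout embryos. Knockout embryo 3 lay among the wild-type values, and the estimate was -0.31 (SE 0.16, 95% interval -0.66 to 0.04, edgeR FDR 0.339). Its cardiac relative Lmod2 had an estimate of -0.61 (edgeR FDR 0.358). Smtn (NM_001159284, chr11:3417526-3440615, minus strand) encodes smoothelin, an actin-binding protein of contractile smooth muscle. It stood at 43.1, 41.5, 59.6 and 36.2 CPM in wild-type and 36.3, 47.8, 41.5 and 37.1 CPM in knockout embryos. Wild-type embryo 3, low for Acta2 and Tagln, was the highest of all 8 here. The Smtn estimate was -0.15 (SE 0.15, 95% interval -0.49 to 0.19, edgeR FDR 0.654), and it was 0.01 without wild-type embryo 3. Smtn exons shared 714 bases with Gm11946 and 39 bases with Gm11947 on the opposite strand.

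**Figure D2:**
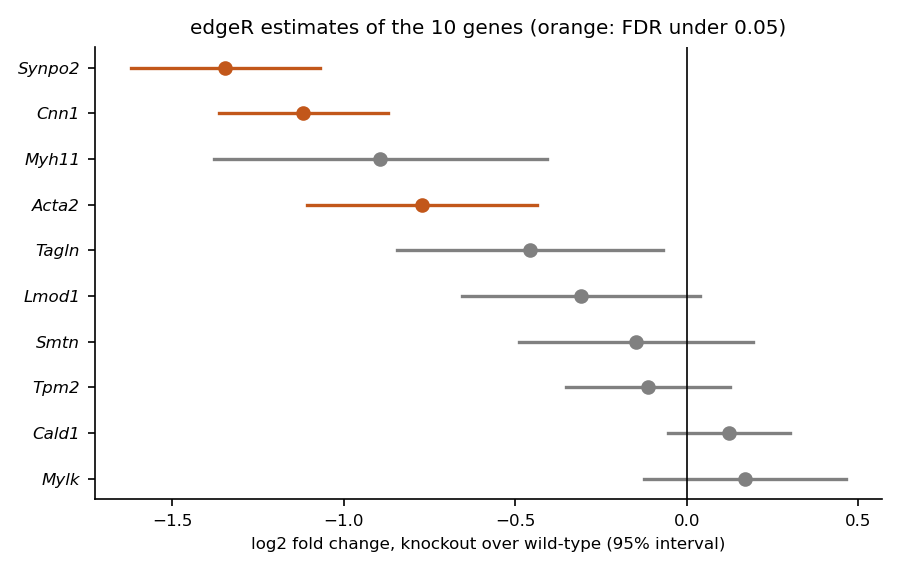
edgeR estimates of the log2 fold change, knockout over wild-type (x axis), with 95% intervals for the 10 genes, ordered by estimate (y axis), and orange where the FDR was under 0.05. Synpo2 (-1.35) and Cnn1 (-1.12) stand lowest, the intervals of Myh11 and Tagln also lie below 0, and those of Lmod1, Smtn, Tpm2, Cald1 and Mylk include 0.

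For the 7 genes that did not pass, the intervals limit what could have been missed. The lower bounds for Tpm2, Mylk and Cald1 were -0.35, -0.13 and -0.06 on the log2 scale, whereas those for Tagln, Lmod1, Smtn and Myh11 ran from -1.38 to -0.49. Differences between the estimates of the 10 genes were not tested.

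Levels of different genes were compared per kilobase of transcript (RPKM). In wild-type embryos Acta2 was highest at 146 ± 29.8 RPKM and Myh11 lowest at 0.360 ± 0.0809 RPKM (SD, n = 4 each), a ratio of 406. Tagln (39.1 ± 9.85 RPKM) and Cald1 (38.7 ± 1.69) came next and overlapped. They were followed by Cnn1 (10.2 ± 0.764), Tpm2 (8.13 ± 0.949) and Smtn (7.79 ± 1.76), each overlapping the next. Mylk (3.31 ± 0.451) stood alone, and Synpo2 (1.63 ± 0.189) and Lmod1 (1.32 ± 0.174) overlapped. Gamma-smooth muscle actin, Actg2 (1.005 RPKM in wild-type, 0.963 in knockout embryos), had a wild-type mean between those of Lmod1 and Myh11. Like Synpo2, Lmod1 and Myh11, it was far below Acta2. The atrial light chain gene Myl7, for comparison, stood at 299.5 RPKM in wild-type embryos.

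**Figure D3:**
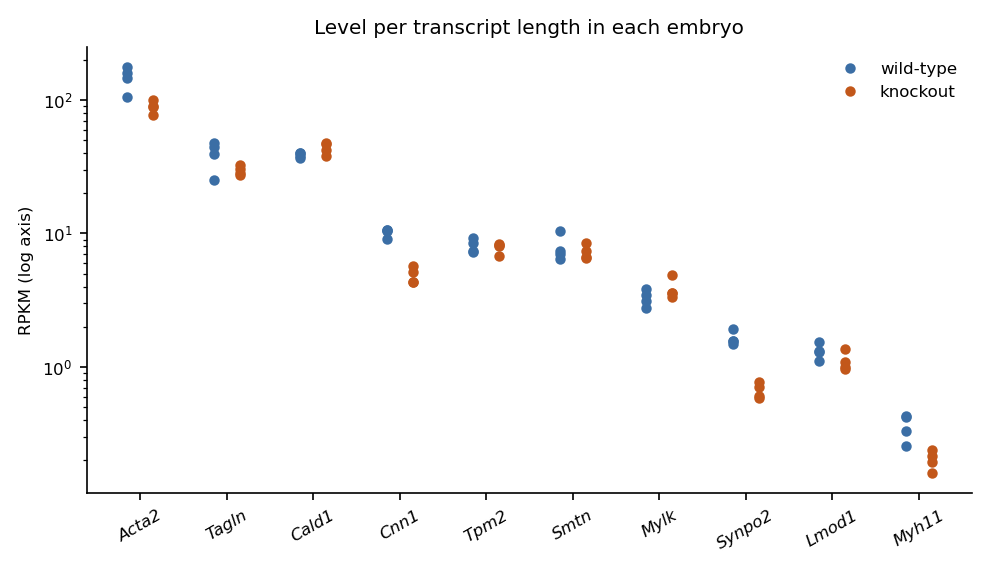
Level per transcript length (y axis, RPKM, log axis) of the 10 genes (x axis, in the order of the wild-type mean) in each wild-type (blue) and knockout (orange) embryo. Levels run from 175 RPKM for Acta2 to 0.161 RPKM for Myh11, and the knockout points of Cnn1 and Synpo2 lie below those of their neighbours Tpm2 and Lmod1.

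In knockout embryos the order of mean RPKM changed at 3 places. Cald1 (43.8) stood above Tagln (29.7), Tpm2 (7.84) and Smtn (7.30) above Cnn1 (4.88), and Lmod1 (1.11) above Synpo2 (0.668). The summed CPM of the 10 genes ran from 1012 to 1403 in wild-type and from 877.5 to 949.7 in knockout embryos. Acta2 made up 52.5% of that sum in wild-type and 41.1% in knockout embryos, Cald1 22.4% and 32.5%, Cnn1 2.82% and 1.73%, and Synpo2 1.62% and 0.853%.

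The genes did not vary together as 1 block from embryo to embryo. Over the 8 embryos, Pearson's r of log2 CPM was 0.99 for Cnn1 and Synpo2 and 0.92 for Acta2 and Tagln, and after the group means were removed it was 0.70 and 0.97. Acta2 also had an r of 0.92 with Cnn1, 0.89 with Synpo2, 0.87 with Myh11 and 0.84 with Lmod1. With the group means removed these were 0.68, 0.44, 0.51 and 0.74. Smtn, Mylk and Cald1 went apart from Acta2, with an r of 0.02, -0.21 and -0.56, and Smtn and Mylk had one of -0.73. Synpo2 and Cald1 had an r of -0.66, and of -0.97 with the group means removed. These values describe 8 points that share their libraries and, before the means were removed, the difference between the genotypes.

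**Figure D4:**
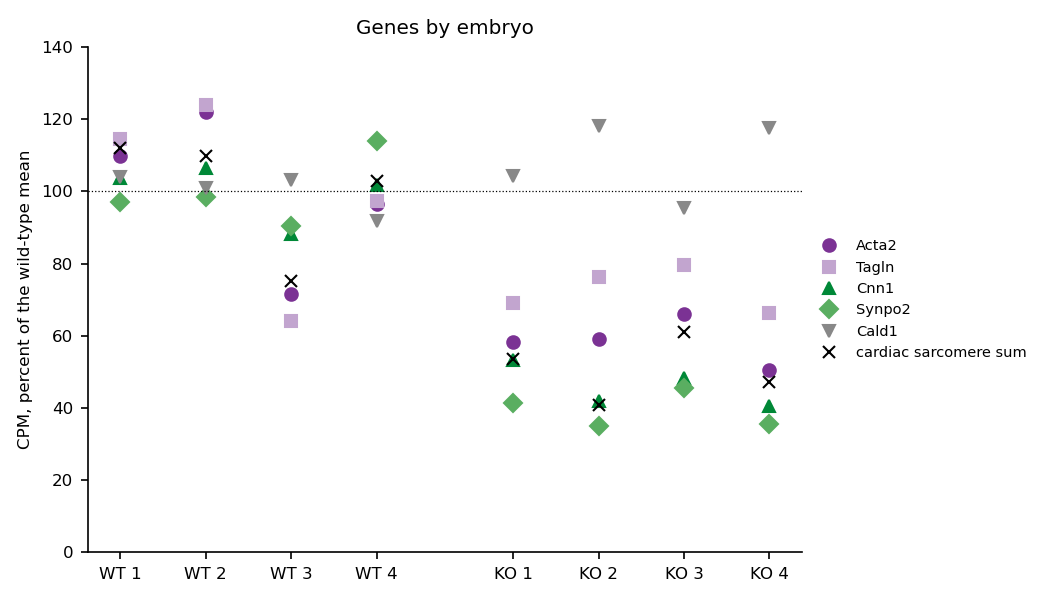
CPM as a percentage of the wild-type mean (y axis) for 5 of the genes and for the sum of 20 cardiac sarcomere genes (crosses) in each embryo (x axis). In wild-type embryo 3 Acta2 (71.6%), Tagln (64.1%) and the cardiac sum (75.2%) are low while Cnn1 (88.2%) and Synpo2 (90.3%) are less so, and the knockout embryos are at 66.1% or less for Acta2, Cnn1, Synpo2 and the cardiac sum.

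Cardiac sarcomere genes moved beside them. All 20 genes of that list had estimates below 0, from -1.38 to -0.40 with a median of -0.91, and 14 of 20 fell at an edgeR FDR of 0.05, against 0.867% of all genes. That count was 7 without knockout embryo 4 or wild-type embryo 1 and 8 without wild-type embryo 2 or 4. The 5 with the smallest p were Tnnc1 (troponin C, fell by 1.003 on the log2 scale, edgeR FDR 0.00337), Myh7 (beta-myosin heavy chain, by 1.18, 0.00453), Myom1 (myomesin, by 1.32, 0.00495), Mybpc3 (myosin-binding protein C, by 1.01, 0.00669) and Myl7 (atrial light chain, by 0.79, 0.00811). The summed level of the list was 5305, 5201, 3557 and 4868 CPM in wild-type and 2539, 1931, 2887 and 2237 CPM in knockout embryos. Like Acta2, it was lowest in wild-type embryo 3 within its group and highest in knockout embryo 3 within its own. Its part in the differences of Acta2, Cnn1, Myh11 and Synpo2 was not tested.

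The actins of striated muscle resemble Acta2 in sequence. In wild-type embryos Actc1 stood at 531 RPKM and Acta1 at 31.6 RPKM, against 146 RPKM for Acta2. Actc1, cardiac alpha-actin, stood at 1510, 1597, 895 and 1311 CPM in wild-type and 824, 579, 775 and 651 CPM in knockout embryos. Wild-type embryo 3 was again the lowest of its group, the groups did not overlap, and Actc1 fell by 0.91 on the log2 scale (SE 0.18, edgeR FDR 0.0480), a call that was lost, as for Acta2, when any 1 embryo other than wild-type embryo 3 was left out. Acta1, skeletal alpha-actin, had an estimate of -0.86 (FDR 0.0587) and Actg2 one of -0.12 (FDR 0.761). Acta2 and Actc1 shared 82.5% of their coding bases. The longest identical run between the transcripts was 23 bases, and with Acta1 or Actg2 it was 29. Runs shared by Cnn1 with Cnn2 or Cnn3 were at most 23 bases, by Tpm2 with Tpm1 37 and by Lmod1 with Lmod2 21. The read length and the treatment of reads with several matches are not given in the sources used here. Whether reads of 1 of these genes were counted for another was not tested.

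A wider list of 35 contractile and cytoskeletal genes held light chains, tropomyosins, calponins, LIM proteins and regulators of myosin phosphatase. All 35 were fitted, 31 had estimates below 0 and 4 above, with a median of -0.20, against 6868 of 14075 genes below 0. At an edgeR FDR of 0.05, 6 fell and none rose, against 0.867% and 0.107% of all genes. Kcnmb1, the beta subunit of the calcium-activated potassium channel of smooth muscle, stood at 7.97, 7.67, 8.01 and 6.16 CPM in wild-type and 3.56, 3.27, 2.93 and 3.57 CPM in knockout embryos. The groups were far apart, and it fell by 1.16 on the log2 scale (SE 0.14, edgeR FDR 0.00447). The others that fell were Pdlim5 (by 0.44, edgeR FDR 0.00447), Nexn (by 0.71, 0.00799), Palld (by 0.39, 0.0197), Pdlim3 (by 0.82, 0.0204) and Tpm1. Of the 6, only Pdlim5, Kcnmb1 and Nexn passed without knockout embryo 3 or 4 or wild-type embryo 1 or 2. Pdlim3, Pdlim5, nexilin and palladin anchor actin at Z-discs or dense bodies, and these genes are used by cardiac and skeletal muscle as well. Myl9, the regulatory light chain of smooth muscle, had an estimate of -0.57 (edgeR FDR 0.0993), and Des, which encodes desmin, one of -0.73 (FDR 0.0609).

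**Figure D5:**
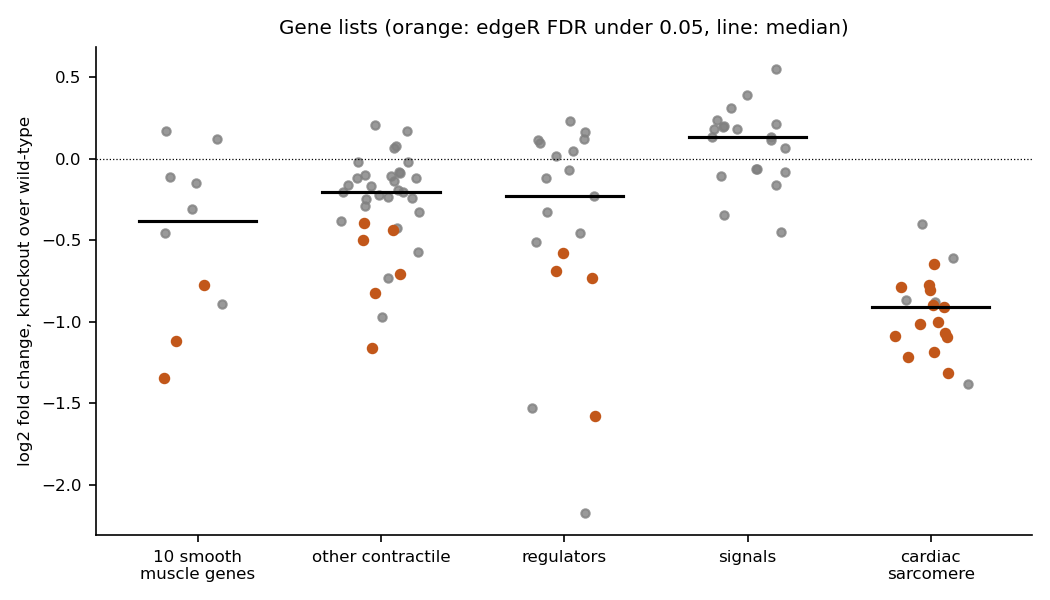
edgeR log2 fold changes, knockout over wild-type (y axis), of every gene of 5 lists (x axis, points spread sideways for sight), orange where the FDR was under 0.05, with the median of each list as a line. The medians are -0.38 for the 10 smooth muscle genes, -0.20 for 35 other contractile genes, -0.23 for 19 regulators, 0.13 for 20 signal genes and -0.91 for 20 cardiac sarcomere genes.

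Among 19 regulators of these genes, 4 fell and none rose at an edgeR FDR of 0.05, against 0.867% and 0.107% of all genes, with 12 estimates below 0 and 7 above. Myocd, which encodes myocardin, stood at 29.1, 28.3, 49.3 and 32.01 CPM in wild-type and 12.9, 8.995, 12.5 and 11.99 CPM in knockout embryos. Wild-type embryo 3, lowest for Acta2, was highest for Myocd, and every knockout embryo lay below every wild-type embryo. Myocd fell by 1.58 on the log2 scale (SE 0.19, edgeR FDR 0.00447). Srf was lower in every knockout embryo (116 ± 18.7 against 81.5 ± 6.26 CPM, SD, n = 4 each) without passing the threshold (estimate -0.51, edgeR FDR 0.0690). It passed without wild-type embryo 3 (-0.54, edgeR FDR 0.0487) or wild-type embryo 4 (-0.60, FDR 0.0287), and DESeq2 gave it an adjusted p of 0.00181. The myocardin-related factors Mrtfa and Mrtfb, listed as Mkl1 and Mkl2, had estimates of 0.12 (edgeR FDR 0.513) and 0.10 (FDR 0.565). The others that fell were Mef2c (by 0.73, edgeR FDR 0.00985) and Gata6 (by 0.69, FDR 0.0278), both transcription factors of heart and smooth muscle, and Hopx (by 0.58, FDR 0.0496), a homeodomain protein that restrains SRF. Of the 4, only Myocd and Mef2c passed when any 1 knockout embryo or wild-type embryo 1 was left out. Klf4, a repressor of smooth muscle genes, varied widely among wild-type embryos, at 15.1, 32.6, 2.82 and 3.88 CPM against 1.78 to 4.65 CPM in knockout embryos (estimate -2.17, SE 0.71, edgeR FDR 0.171).

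Of 20 ligands, receptors and transducers of TGF-beta, Notch, PDGF, endothelin and sphingosine phosphate signalling, none passed an edgeR FDR of 0.05. At an unadjusted edgeR p under 0.05, 2 were lower and 2 higher, against 10.1% and 7.37% of all genes. DESeq2 called 1 of the 20, Tgfb2, lower, against 3.53% of the genes to which it gave an adjusted p. Estimates were below 0 for 7 genes and above 0 for 13, with a median of 0.13. Tgfb2, which encodes a TGF-beta ligand, had an estimate of -0.45 (edgeR FDR 0.0930), and Pdgfb, which encodes a ligand that recruits mural cells, one of 0.55 (FDR 0.176).

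Markers of other cell types were read from the same libraries. Of 9 mural cell markers (pericytes and vascular smooth muscle), 8 passed the filter, with 6 estimates below 0, 2 above and a median of -0.26. DESeq2 called 3 of them lower, against 3.53% of the genes to which it gave an adjusted p. By the thresholds of the study, 3 were lower, against 2.26% of all genes. At an edgeR FDR of 0.05, 1 fell, Kcnmb1, already counted in the wider contractile list, against 0.867% of all genes. The estimates of the others fitted were -1.37 for Cspg4 (edgeR FDR 0.0622), -0.80 for Rgs5 (FDR 0.0966), -0.40 for Abcc9, -0.12 for Actg2, -0.01 for Mcam, 0.20 for Notch3 and 0.31 for Pdgfrb. Their summed level ran from 236 to 282 CPM in wild-type and from 233 to 289 CPM in knockout embryos, most of it Notch3 and Pdgfrb, and Kcnj8 was near 0. Skeletal muscle markers summed to 67.3 to 119 CPM in wild-type and 54.4 to 66.2 CPM in knockout embryos, most of it Acta1, with 4 of 8 passing the filter and the defining factors Myod1, Myog and Myf6 near 0. Of the 4 fitted, Acta1 is described above, and the estimates of the others were 0.75 for Myf5 (edgeR FDR 0.444), 0.29 for Actn3 (FDR 0.324) and 0.01 for Tnnt3 (FDR 0.979). None of the 9 endothelial, 8 erythroid, 9 endoderm, 7 neural crest and 7 proepicardial markers passed an edgeR FDR of 0.05, and DESeq2 called none of them lower. Estimates were above 0 for 8 of 8 erythroid (median 0.43) and 7 of 7 neural crest markers (median 0.22). The same held for 7 of 9 endoderm (median 0.10) and 5 of 7 proepicardial markers (median 0.18). For 8 of 9 endothelial markers the estimates were below 0 (median -0.10). Of all 14075 genes, 7207 had estimates above 0 and 6868 below. Markers of 1 list share their libraries and can vary together, so their directions are not separate observations. At an unadjusted edgeR p under 0.05, 1 endothelial marker was lower, against 10.1% of all genes. Summed levels were 382 to 489 CPM in wild-type and 308 to 434 CPM in knockout embryos for endothelial markers, 258 to 304 and 221 to 420 CPM for neural crest, and 66.0 to 171 and 96.3 to 131 CPM for proepicardial markers.

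Erythroid and endoderm markers varied widely within both groups. Erythroid markers summed to 368 to 2337 CPM in wild-type and 1239 to 3082 CPM in knockout embryos, lowest in wild-type embryo 3. Endoderm markers summed to 341 to 1295 CPM in wild-type and 303 to 1959 CPM in knockout embryos, highest of the wild-type group in embryo 3. That embryo combined the lowest levels of its group for Acta2, Tagln, Cnn1, Mylk, Lmod1 and Synpo2, 6 of the 10 genes, and for the cardiac sarcomere sum with few erythroid and many endoderm reads, and the part of these in its levels of the 6 genes was not tested. Without it Cnn1 (-1.17) and Synpo2 (-1.39) both had an edgeR FDR of 0.00239. Reads of Y-linked genes were present in 1 of 4 wild-type and 3 of 4 knockout embryos. With that as a covariate, Cnn1 (-1.17, edgeR FDR 0.00486) and Synpo2 (-1.47, FDR 0.00286) still passed, and Acta2 (-0.75, FDR 0.156) did not. Without knockout embryo 2, the one with the total RNA label, Cnn1 (-1.07, edgeR FDR 0.00636) and Synpo2 (-1.29, FDR 0.00632) passed and Acta2 (-0.77, FDR 0.0768) did not.

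Genes whose levels over the 8 embryos followed the average of the 10 were sought with the mean of the 10 genes' z-scored log2 CPM. Since the 10 did not vary as 1 block, likeness to this mean is not likeness to each of them. The 10 fitted genes with the highest Pearson's r were Lyar (0.986), Rbbp4 (0.982), Btbd10 (0.980), Ncbp2 (0.978), Hnrnpdl (0.976), Rsl1d1 (0.976), Acta1 (0.976), Hnrnph2 (0.974), Ddx5 (0.974) and Actg1 (0.974). Acta1 and the cytoplasmic gamma-actin gene Actg1 are actins, and several others encode RNA-binding or nucleolar proteins. These were the highest of all genes fitted, so the values describe the pattern and test nothing. None of these 10 genes passed an edgeR FDR of 0.05, and their FDR ran from 0.0587 to 0.247. For each of them, as for the mean score itself, every knockout embryo lay below every wild-type embryo.

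Several entries of the table belonged to the same gene. Smtn had 5, Tpm2 had 3, Myh11 and Cald1 had 2 each, and the other 6 genes had 1. The entries of Smtn, Myh11 and Cald1 differed little in their counts, since they shared most of their exons, so forms of these genes could not be told apart. Those of Tpm2 differed more. The entry used had 3239 bases and 8113 reads over all embryos, and the others had 2097 bases with 6367 and 6131 reads. The other Tpm2 entries were not fitted, so the Tpm2 estimate describes the entry used. Taking the longest entry in place of the one with the most reads changed the entry of only Smtn among the 10 genes, whose estimate became -0.14.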

How the data were processed

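Single E8.75 embryos, 4 Isl1 knockout and 4 wild-type, gave 1 library each, grouped by their titles. The authors prepared libraries from 100 ng of RNA, sequenced them on a NextSeq500, aligned them with STAR to mm9 and counted reads over RefSeq exons on both strands with HOMER. The deposited counts are raw. The deposited RPKM were computed by the authors with edgeR. Further deposited columns, with DESeq2 output of the authors, were not used: a mean signal, log2 fold changes with their errors, a test score, and p-values. Versions of these tools are not given in the sources used here.

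For each symbol 1 transcript was analysed in R 4.3.3 with edgeR 4.0.16: filterByExpr, TMM, a quasi-likelihood fit of genotype over 14075 genes, two-sided tests and Benjamini-Hochberg adjustment over all of them. The fit was tested on simulated data. DESeq2 1.42.0, limma 3.58.1 on log2(RPKM + 1) and log2(RPKM + 0.1), other scaling and filters, a replicate block, Y-linked reads and leaving out each embryo were alternatives. Totals were 18916452 to 26153039 reads. Reads carried no molecular identifiers, so their number limits counting error only. Coordinates are from GENCODE vM1 (NCBIM37, that is mm9). Python 3.11.15 with pandas 2.3.3, numpy 2.4.6 and matplotlib 3.10.9 made tables and plots.

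The 10 genes and all lists were chosen with earlier results of these data known. Named genes were Isl1, the 10 genes, up to 5 genes past FDR 0.05 with the smallest p of each other list, Myocd, Srf, Mrtfa, Mrtfb and Klf4, paralogs of the 10 genes, and the 10 genes most correlated with their mean score. Myl9, Des, Tgfb2, Pdgfb and the single mural and skeletal muscle markers other than Kcnmb1, Actg2 and Acta1 were named after their values were seen.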

Additional observations from a re-analysis of the deposited data

Results flagged for a closer look

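In 3 of 90 groups of 4 embryos, from 45 named genes, 1 embryo stood apart from its group by Dixon's test, where chance alone gives about 1 in 20. None was among the 10 smooth muscle contractile genes. Gata6 was at 85.8 CPM in wild-type embryo 2 against 60.0 to 61.5 CPM in the other 3. Hopx was at 17.8 CPM in wild-type embryo 3 against 21.3 to 22.04 CPM. Actg2 was at 1.82 CPM in wild-type embryo 4 against 2.38 to 2.44 CPM.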

How the results depend on the processing

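Under 17 alternatives Cnn1 and Synpo2 passed the FDR threshold every time, and between 2 and 4 of the 10 genes passed. Acta2 was lost in 12 of 17: leaving out any embryo but wild-type embryo 3, Y-linked reads as a covariate, limma on RPKM (FDR 0.0668 and 0.0698), robust dispersion (0.0508) and the replicate block. Of 765 values of single genes, 668 kept their direction and side of the threshold, 71 lost and 23 gained the call, and 3 turned: Smtn to 0.04 and Actg2 to 0.0034 with Y-linked reads as a covariate, and Smtn to 0.01 without wild-type embryo 3 (-0.24 to 0.01 over the 8 fits that leave out 1 embryo). The causes were not tested.

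The labels number the embryos of both groups 1 to 4. Deviations of same-numbered embryos correlated at 0.111, 0.210, 0.0850 and 0.509, and 2 of 8 embryos correlated best with their own number, so the numbers were not taken to pair embryos. With the replicate block, 2 of the 10 genes (Acta2 -0.75, edgeR FDR 0.104), 3 other contractile genes (6 without it), 8 cardiac sarcomere genes (14 without it), 3 regulators (4 without it, with Srf gained at an FDR of 0.0490 and Gata6 and Hopx lost at 0.0750 and 0.0674) and 72 lower and 4 higher of all genes passed.

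DESeq2 called 10 other contractile genes, 1 signal gene, and 468 lower and 241 higher genes of all, against 122 and 15 with edgeR. Leaving out 1 embryo gave 3 to 9 other contractile genes, 2 to 6 regulators and 7 to 19 cardiac sarcomere genes, with 384 lower and 106 higher of all genes without wild-type embryo 3 and 67 to 105 lower and 3 to 33 higher in the other 7 fits. All genes numbered 102 lower and 5 higher with the Y-linked covariate, 94 and 25 with limma at a pseudocount of 1, and 87 and 24 at 0.1. At these pseudocounts the log2 estimate of Myh11, a gene with few reads, was -0.18 and -0.60.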
